A study of Arabidopsis thaliana with 2 samples.

Results

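The MIKC* genes are a small group of Arabidopsis thaliana MADS-box transcription factor genes, known chiefly for their work in pollen. The 7 genes AGL30, AGL33, AGL65, AGL66, AGL67, AGL94 and AGL104 were taken by name from the 27444 protein-coding genes of chromosomes 1 to 5 in the TAIR10.1 RefSeq gene table, and all 7 were found by their symbol. They were examined for DNA binding by 2 altered complexes of SEPALLATA3 (SEP3) and AGAMOUS (AG), floral MADS-domain proteins that can join into a tetramer. The assay was seq-DAP-seq, a sequential form of DNA affinity purification sequencing. It captures fragments of purified genomic DNA on protein complexes and sequences them. The complexes are named SEP3Δtet3M-AG and SEP3Δtet-AGΔtet in the sample titles, and the design text calls both tetramerization mutants. The labels do not say what 3M stands for. The DNA of both samples came from untreated Arabidopsis seedlings 2 weeks old, so the measurement reads binding to DNA and not the activity of these genes in pollen or in any other tissue. The genotype label of the SEP3Δtet-AGΔtet sample names the other complex, and the title was followed. The design text also names the SEP3AG wild-type complex and the earlier mutant SEP3ΔtAG, neither of which was analysed here.

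Each complex has 1 list of peaks, with 1681 peaks for SEP3Δtet3M-AG and 2277 for SEP3Δtet-AGΔtet. All are 400 bp wide and carry no score, so a peak is present or absent and its height is unknown. The sequencing depth is also unknown. Peak coordinates are counted from 1, on a genome build that the labels do not name, and distances to genes assume that it matches the gene table. With 1 list per complex there is no replicate error, and no difference between the complexes could be tested at any gene.

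MADS-domain proteins bind DNA as dimers at short A/T-rich elements called CArG boxes. The classical MIKC proteins, to which SEP3 and AG belong, can pair further into tetramers through their keratin-like (K) domain. The MIKC* proteins are an ancient sister branch whose members form their own dimers, each joining a protein of the P clade (AGL30, AGL65 and AGL94) with a protein of the S clade (AGL66, AGL67 and AGL104). In Arabidopsis such dimers control many genes switched on in maturing pollen, and plants lacking both AGL66 and AGL104 make pollen that germinates and competes poorly. AGL67 is better known from seeds, where it restrains germination. AGL33 is placed with this group by sequence, and its role is less well described. Of the 7 genes, 5 lie on chromosome 1 and AGL30 and AGL33 lie on chromosome 2.

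Only AGL30 and AGL94, both of the P clade, carried a peak, and each such peak lay inside the gene. A peak was assigned to each gene that held its midpoint or had an end at most 3000 bp from it. By this rule 1 of the 7 genes, AGL30, had a peak with SEP3Δtet3M-AG, against a background of 12% of all protein-coding genes. With SEP3Δtet-AGΔtet 2 of the 7, AGL30 and AGL94, had a peak, against a background of 15.8%. AGL30 was the 1 gene with a peak in both lists, where 8.65% of all genes had one. No member had a peak with SEP3Δtet3M-AG alone (background 3.39%), and AGL94 was the 1 member with a peak with SEP3Δtet-AGΔtet alone (background 7.15%). The other 5 genes had a peak in neither list, as did 80.8% of all genes. A single gene more or less moves such a share widely, so these counts do not set the group apart from other genes.

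AGL30 encodes a P-clade partner of the S-clade proteins in pollen. It had 1 peak with SEP3Δtet3M-AG, at chr2:901092-901491. The SEP3Δtet-AGΔtet list also had 1 peak there, at chr2:901116-901515. The peaks have 376 bp in common and their midpoints lie 24 bp apart. Among all peaks, 67.6% of those of SEP3Δtet3M-AG and 49.7% of those of SEP3Δtet-AGΔtet had such an overlapping partner. Both peaks lie wholly inside the gene, close to 1 of its ends, and AGL30 is the nearest gene of any type to each. Their midpoints are 230 bp from that end with SEP3Δtet3M-AG and 254 bp with SEP3Δtet-AGΔtet, in a gene 3089 bp long. Across all 881 pairs of a gene and a SEP3Δtet3M-AG midpoint inside it, the median distance from the nearer end was 589 bp. Across the 1068 such pairs with SEP3Δtet-AGΔtet it was 603.5 bp. Of these pairs, 22.7% with SEP3Δtet3M-AG and 25.7% with SEP3Δtet-AGΔtet lay at least as near to an end as at AGL30. The gene table gives no strand, so whether this end is the start or the end of transcription is not known here. Over all 1137 SEP3Δtet3M-AG peaks that overlap the other list, the median distance between midpoints was 8 bp, and 89.1% of the pairs lay at least as close together as the pair at AGL30. A midpoint inside the gene was found for 3.17% of all protein-coding genes with SEP3Δtet3M-AG, for 3.8% with SEP3Δtet-AGΔtet and for 2.14% with both.

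AGL94, the second P-clade gene with a peak, differed between the lists. No SEP3Δtet3M-AG midpoint lay inside it or within 3000 bp. The SEP3Δtet-AGΔtet list held 1 peak there, at chr1:26147158-26147557. That peak lies wholly inside the gene, which is 2751 bp long, with its midpoint 394 bp from the nearer end, and AGL94 is the nearest gene to it. The nearest SEP3Δtet3M-AG midpoint to that peak lay 7507 bp away. Among all protein-coding genes, 1.5% had a SEP3Δtet-AGΔtet midpoint inside and no SEP3Δtet3M-AG midpoint within 3000 bp.

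**Figure D1:**
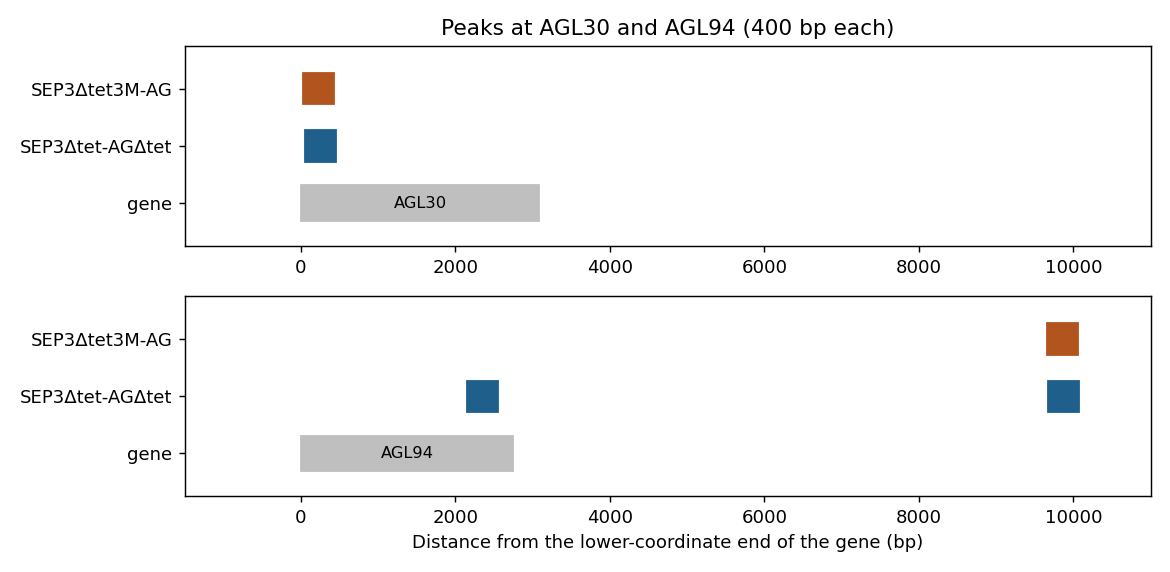
Peaks at AGL30 (top) and AGL94 (bottom), drawn to scale as boxes 400 bp wide against the distance in bp from the lower-coordinate end of each gene (grey box), with SEP3Δtet3M-AG in the upper row and SEP3Δtet-AGΔtet in the row under it. AGL30 has a peak of each complex near the same end, with 376 bp in common, while AGL94 has a SEP3Δtet-AGΔtet peak inside the gene and a peak of each complex outside it, with midpoints at 9863 bp on this axis for SEP3Δtet3M-AG and 9869 bp for SEP3Δtet-AGΔtet.

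Outside AGL94 the lists met again. The nearest SEP3Δtet3M-AG peak to the gene lay at chr1:26154665-26155064, with its midpoint 7113 bp from the gene. A SEP3Δtet-AGΔtet peak at chr1:26154671-26155070 overlapped it by 394 bp, with midpoints 6 bp apart. The protein-coding gene nearest to this SEP3Δtet3M-AG peak was AT1G69550, at 1264 bp, and the nearest gene of any type was AT1G09835, an RNA gene, at 690 bp. The whole of 1 protein-coding gene lay between AGL94 and the SEP3Δtet3M-AG peak. Of all protein-coding genes, 22.4% lay at least as near to a SEP3Δtet3M-AG midpoint. The site found with both complexes was thus beyond the 3000 bp limit of AGL94, and the peak inside the gene was found with SEP3Δtet-AGΔtet alone.

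AGL65, the remaining P-clade gene, lay far from peaks of both complexes. Its nearest SEP3Δtet3M-AG midpoint was 91630 bp away, with 22 protein-coding genes in between. Of all protein-coding genes, 93.1% lay at least as near to a SEP3Δtet3M-AG peak. That peak, at chr1:6374838-6375237, fell inside TET11, which encodes a tetraspanin membrane protein. With SEP3Δtet-AGΔtet the nearest midpoint was 23479 bp away, beyond 4 protein-coding genes, and 63.2% of all genes lay at least as near. That peak, at chr1:6442989-6443388, fell inside AT1G18700. Neither peak overlapped the other list. AGL65 was the 1 member with no SEP3Δtet3M-AG peak within 50 kb, as was true of 21.4% of all protein-coding genes.

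The 3 S-clade genes had no peak within the 3000 bp limit with either complex. AGL66, which acts in pollen together with AGL104, came closest to a SEP3Δtet3M-AG peak, though not to a SEP3Δtet-AGΔtet peak. Its nearest SEP3Δtet3M-AG midpoint lay 3914 bp from the gene, just beyond the limit, in a peak at chr1:29320901-29321300. No other protein-coding gene lies wholly between, and the peak falls inside the neighbouring gene AST56, which encodes a sulfate transporter. Of all protein-coding genes, 14.5% lay at least as near to a SEP3Δtet3M-AG peak. No SEP3Δtet-AGΔtet peak overlapped it. With SEP3Δtet-AGΔtet the nearest midpoint to AGL66 was 34593 bp away, beyond 7 protein-coding genes, and 76.3% of all genes lay at least as near. That peak, at chr1:29351580-29351979, fell inside AT1G78060 and the long non-coding RNA gene AT1G09777.

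AGL67 is the neighbour of AGL66, separated by 3646 bp with no protein-coding gene between, so the same peaks were nearest to both. The distances were 9906 bp with SEP3Δtet3M-AG and 40585 bp with SEP3Δtet-AGΔtet. Of all genes, 28.9% lay at least as near to a SEP3Δtet3M-AG midpoint, and 81.1% to one of SEP3Δtet-AGΔtet. The values of AGL66 and AGL67 describe 1 stretch of chromosome and are not separate observations.

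AGL104 had the same nearest peak with both complexes. The SEP3Δtet3M-AG peak at chr1:7830350-7830749 lay 16204 bp from the gene, and the SEP3Δtet-AGΔtet peak at chr1:7830353-7830752 lay 16207 bp from it. They overlap by 397 bp, with midpoints 3 bp apart. The gene nearest to them was AT1G22180, at 125 and 128 bp. The whole of 5 protein-coding genes lay between AGL104 and these peaks. Of all genes, 41.5% lay at least as near to a SEP3Δtet3M-AG midpoint, and 51.1% to one of SEP3Δtet-AGΔtet.

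AGL33, at 899 bp the shortest of the 7 genes, likewise lacked a peak with both complexes. The nearest SEP3Δtet3M-AG midpoint was 46844 bp away, in a peak at chr2:11158346-11158745 inside AT2G26210, and 76.5% of all genes lay at least as near. The nearest SEP3Δtet-AGΔtet midpoint was 8493 bp away, in a peak at chr2:11214581-11214980, and 33.0% of all genes lay at least as near. The gene nearest to this second peak, at 118 bp, was ER (ERECTA), which encodes a receptor kinase of organ growth. Neither peak overlapped the other list, and their midpoints lay 56235 bp apart.

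**Figure D2:**
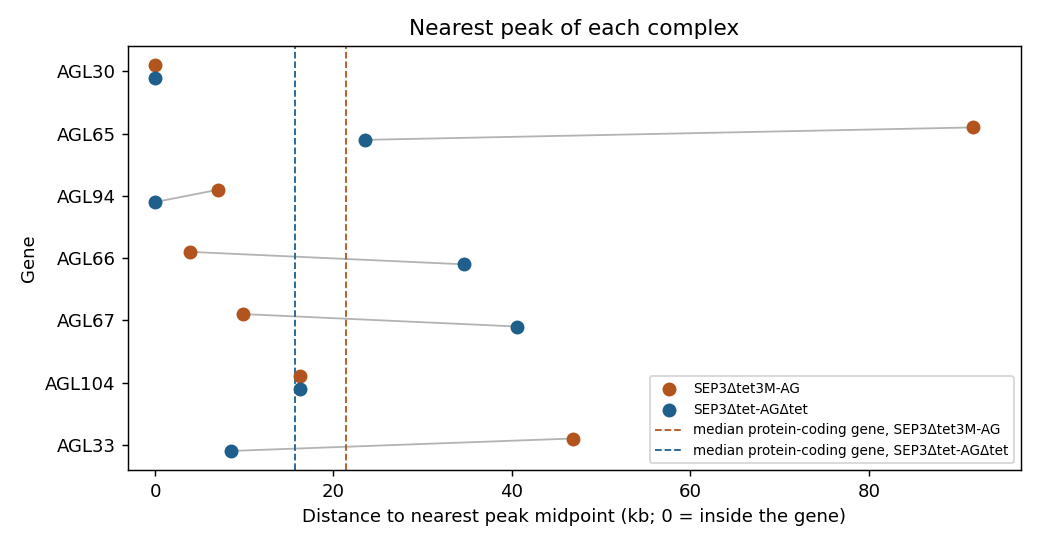
Distance in kb from each of the 7 genes to the nearest peak midpoint of SEP3Δtet3M-AG (orange) and SEP3Δtet-AGΔtet (blue), with 0 for a midpoint inside the gene and dashed lines at the median of all protein-coding genes for each list. AGL30 is at 0 with both complexes and AGL104 at nearly the same distance with both (16204 and 16207 bp), whereas AGL65, AGL66, AGL67 and AGL33 have widely separated values.

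Ordered by distance to the nearest SEP3Δtet3M-AG midpoint, the genes ran AGL30, AGL66, AGL94, AGL67, AGL104, AGL33 and AGL65. With SEP3Δtet-AGΔtet the order was AGL30 and AGL94, both at 0, then AGL33, AGL104, AGL65, AGL66 and AGL67. The median over the 7 genes was 9906 bp with SEP3Δtet3M-AG, where the median of all protein-coding genes was 21370 bp. It was 16207 bp with SEP3Δtet-AGΔtet, where the median of all genes was 15688.5 bp. The SEP3Δtet3M-AG midpoint was the nearer for 3 genes (AGL66, AGL67 and, by 3 bp, AGL104), and the SEP3Δtet-AGΔtet midpoint for 3 (AGL33, AGL65 and AGL94). AGL66 and AGL67 have the same nearest peaks and are not separate observations, and the 2 peaks nearest to AGL104 overlap. The median of 9906 bp is the value of AGL67. Among all protein-coding genes, 38.4% were nearer to a SEP3Δtet3M-AG midpoint and 58.8% to a SEP3Δtet-AGΔtet midpoint, the longer list.

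Within 50 kb, shared peaks lay around AGL30, AGL94 and AGL104, and none lay around AGL33, AGL65, AGL66 or AGL67. Counting each peak once, 5 of the 11 SEP3Δtet3M-AG peaks within 50 kb of a member were shared, against 67.6% of the whole list. For SEP3Δtet-AGΔtet it was 5 of 16, against 49.7% of that list, and neither gap was tested. AGL104 had the most within 50 kb of these genes, 4 for SEP3Δtet3M-AG and 5 for SEP3Δtet-AGΔtet, against medians of 1 and 2 over all protein-coding genes. Its 2 shared sites there lay next to AT1G22180 and AT1G22230. A SEP3Δtet-AGΔtet peak inside TGA3, which encodes a bZIP factor of pathogen defence, lay 22463 bp from AGL104. AGL94 had 1 SEP3Δtet3M-AG peak and 4 SEP3Δtet-AGΔtet peaks within 50 kb, the farthest of them inside ZFHD1, a zinc finger homeodomain gene. AGL30 had 3 SEP3Δtet3M-AG peaks and 2 SEP3Δtet-AGΔtet peaks there, and besides the site in the gene itself a second shared site lay nearest to EXPA15, a cell wall expansin gene, 19512 bp from AGL30 with SEP3Δtet3M-AG and 19505 bp with SEP3Δtet-AGΔtet. The genes named in these surroundings, beyond those nearest to the closest peak, were chosen after their positions were seen.

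**Figure D3:**
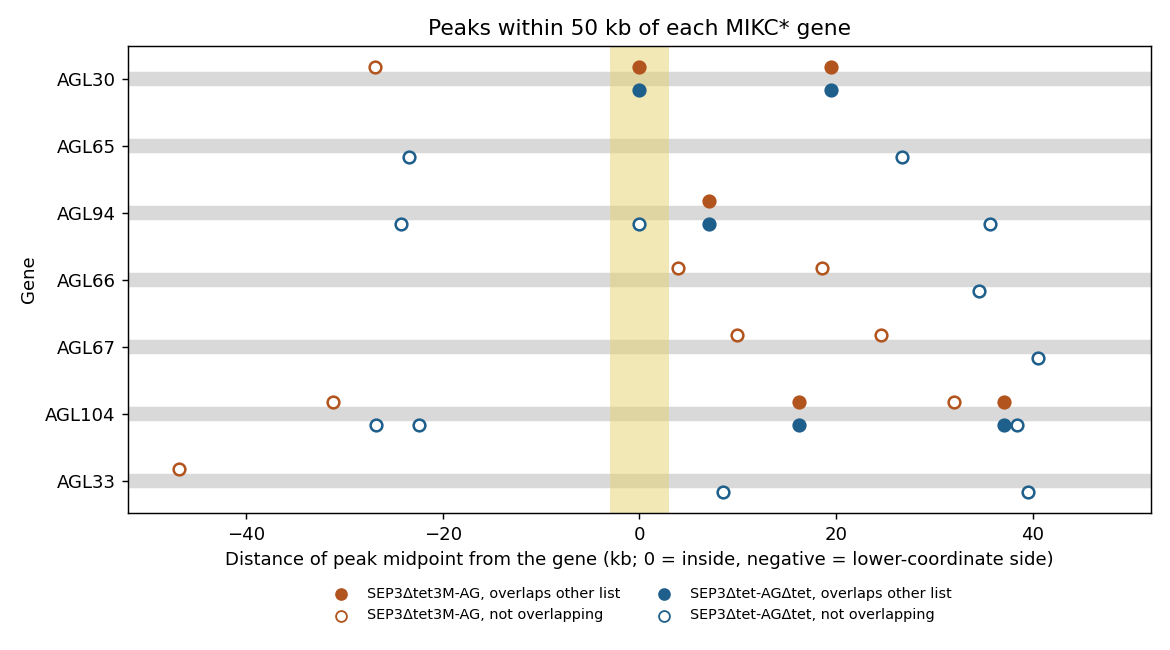
Midpoints of all peaks within 50 kb of each gene, as the distance in kb from the gene's nearer end (0 for a midpoint inside the gene, negative on the lower-coordinate side), with SEP3Δtet3M-AG in orange above SEP3Δtet-AGΔtet in blue. Filled points overlap a peak of the other list, open points do not, and the yellow band marks the limit of 3000 bp, which holds the peaks of AGL30 and AGL94 only.

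Other MADS-box genes carried peaks in numbers that are given here for comparison, without a test. Of the 39 classical MIKC genes, 18 had a peak with SEP3Δtet3M-AG and 19 had one with SEP3Δtet-AGΔtet, and 14 were in both lists, beside 12%, 15.8% and 8.65% of all protein-coding genes. A midpoint lay inside the gene for 12 of the 39 in each list, beside 3.17% of all genes for SEP3Δtet3M-AG and 3.8% for SEP3Δtet-AGΔtet. The median gene length was 3753 bp for the classical MIKC genes, 2751 bp for the MIKC* genes and 2078 bp for all protein-coding genes. Whether length bears on these counts was not tested. The median distance to a peak in that group was 4650 bp with SEP3Δtet3M-AG, against 21370 bp over all genes, and 4558 bp with SEP3Δtet-AGΔtet, against 15688.5 bp. Beside these stand the 1 and 2 of 7 MIKC* genes, and whether the groups differ was not tested.

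Genes that act in pollen or in the anther were also counted, from a list of 27 symbols of which 23 were found in the gene table. AGL18 is also among the 39 classical MIKC genes, so it is counted in both groups. With SEP3Δtet3M-AG 6 of the 23 had a peak and with SEP3Δtet-AGΔtet 10 did, beside the background of 12% and 15.8% of all genes. All 6 were among the 10, and 8.65% of all genes had a peak in both lists. The median distance to a peak in the pollen list was 19764 bp with SEP3Δtet3M-AG, against 21370 bp over all genes. With SEP3Δtet-AGΔtet it was 4671 bp, against 15688.5 bp. Whether the list differs from other genes was not tested. A midpoint lay inside the gene in both lists for AGL18, a MADS-box gene expressed in pollen, for MYB33, a regulator of anther development, and for MS1, which governs the tapetum and the pollen wall. The same held for ANX2, which encodes a receptor kinase that keeps the pollen tube intact. Of all protein-coding genes, 2.14% had a midpoint inside in both lists. The MS1 peaks lay at chr5:7369273-7369672 with SEP3Δtet3M-AG and chr5:7369291-7369690 with SEP3Δtet-AGΔtet. WRKY2, a regulator of pollen development, and DAZ2, a zinc finger gene of the male germ line, had a peak close to the 3000 bp limit in both lists, and another gene lay nearer to it. For WRKY2 the distance was 2863 bp with SEP3Δtet3M-AG and 2860 bp with SEP3Δtet-AGΔtet, and for DAZ2 it was 2909 bp and 2907 bp in the same order. WRKY2 had a further SEP3Δtet-AGΔtet peak 371 bp from the gene. With SEP3Δtet-AGΔtet alone, peaks lay 298 bp from BZIP34, which acts in pollen, and 1499 bp from AT2G40620 (bZIP18). In that list alone, peaks also lay 1627 bp from TDF1 and 2761 bp from AMS, regulators of the tapetum, where AT3G28460 and AT2G16900 were the nearest genes. Among all protein-coding genes, 7.15% had a peak with SEP3Δtet-AGΔtet alone.

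**Figure D4:**
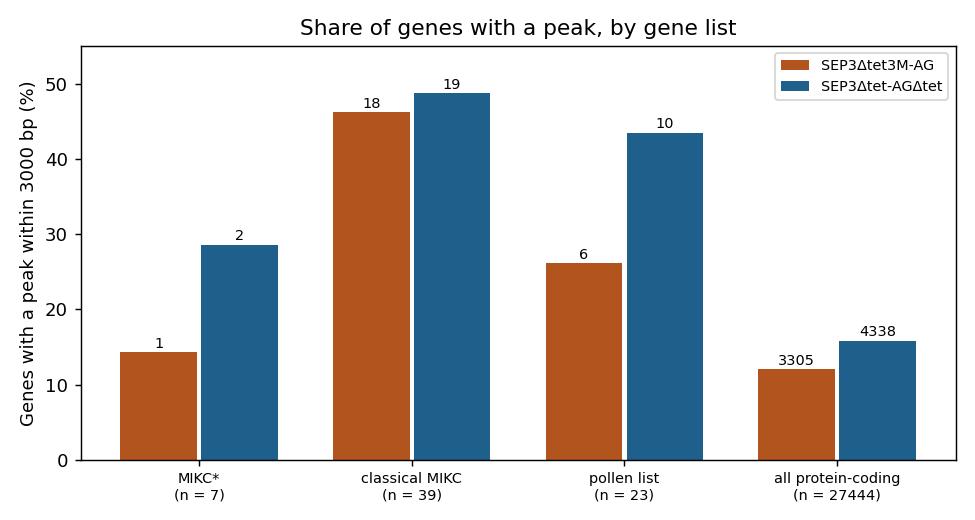
Share of genes (%) with a peak midpoint inside the gene or within 3000 bp, for SEP3Δtet3M-AG (orange) and SEP3Δtet-AGΔtet (blue), in the 7 MIKC* genes, 39 classical MIKC genes, 23 pollen genes and all 27444 protein-coding genes. Numbers on the bars are genes with a peak, and the MIKC* bars rest on 1 and 2 genes. AGL18 is counted in both the classical MIKC and the pollen group.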

How the data were processed

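The 2 deposited files are peak lists in 3 columns (chromosome, start and end, in bp) without a header. Bowtie2, SAMtools and MACS2 are listed in the submitters' processing notes. Their versions and settings, the genome build, read numbers and any pooling were not given in the sources used here. Neither list has peak heights, so a weak and a strong site count alike, and calls near the authors' threshold cannot be recognised.

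Starts were moved to count from 1, and the midpoint stood for the summit. Genes came from the TAIR10.1 RefSeq table, which has no strand or exons. Because the files' build is not named, distances rest on its match to this table, and no gene coordinates are printed. Peaks overlapped when they shared at least 1 bp. Distances run from the midpoint to the nearer gene end. Overlap and distance steps (Python 3.11.15, NumPy 2.4.6, pandas 2.3.3) were tested on simulated peaks.

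The members, gene lists, limits and alternatives were chosen with earlier results of these data known. All members, the genes nearest to their peaks and pollen-list genes with a peak are named. SEP1, SEP2 and GCS1, names carried by several genes, were matched by locus. A further comparison list is not reported here. No test was run.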

Additional observations from a re-analysis of the deposited data

How the results depend on the processing

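Of 30 recomputed values, 27 kept their main value or stayed within 1.5 times of it, and some of these could not have moved. With a limit of 5000 bp instead of 3000 bp, 2 members had a SEP3Δtet3M-AG peak, AGL66 joining AGL30, while 17.3% of all genes had one. With shared peaks only, 1 member had a SEP3Δtet-AGΔtet peak, since the peak inside AGL94 has no partner. Measured to the nearest peak edge, the median distance was 9707 bp with SEP3Δtet3M-AG and 16008 bp with SEP3Δtet-AGΔtet. With a limit of 1000 bp, 6 pollen-list genes had a SEP3Δtet-AGΔtet peak instead of 10, while the share of all genes went down likewise, to 8.69% at that limit against 15.8% at 3000 bp; the limits for the comparison lists were added after the data were seen. A limit of 1000 bp, any base of the peak, merged peaks and the nearest gene alone left the members' counts at 1 and 2. The peaks of AGL30 and AGL94 lie wholly inside these genes, so the shorter limit and the nearest gene alone could not change these counts. Merging also left the counts over all genes as they were, at 3305 and 4338. A stricter peak threshold could not be tried, as no peak carries a score. No paired analysis was possible because each complex has 1 list. An unknown depth limits every absence: a site without a peak may be bound below the authors' threshold.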
